A study of Mus musculus with 6 samples.

Results

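Mitochondrial fusion, fission and mitophagy genes were followed as a set of 10, matched by gene symbol among the 54146 genes counted in each library. The set holds the fusion genes Mfn1, Mfn2 and Opa1, with Oma1, the gene of a protease that cleaves OPA1, counted among them. It also holds the fission genes Dnm1l, Fis1 and Mff, and the mitophagy genes Pink1, Park2 and Bnip3l. Poly A+ messenger RNA of whole kidneys of B6C3F1/J mice was sequenced at postnatal day 84, and the groups are KspCre Tfam f/f (3 libraries) and Tfam f/f (3 libraries), called KspCre-labelled and Tfam f/f-labelled below. By these labels both groups carry a floxed Tfam gene and the first also carries the Ksp-Cre transgene. The promoter of Ksp-cadherin, which drives this Cre, is active in kidney tubule cells, so the deletion would leave Tfam in the other cells of the organ. Whether each library is a different animal is not stated, so a p-value here reflects the scatter among libraries, which may be technical.

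The labels could not be taken as known genotypes. Tfam, which encodes the protein that packages and transcribes mitochondrial DNA, had 63.1, 63.5 and 61.4 CPM (counts scaled to a common library size) in the KspCre-labelled libraries, against 30.3, 33.6 and 23.2 CPM in Tfam f/f-labelled ones. The gene that the Cre should remove was thus higher in every library labelled as carrying Cre. Of all gene counts, the 13 mRNAs of mitochondrial DNA took 11.0%, 11.0% and 11.1% in the KspCre-labelled libraries, and 3.24%, 5.67% and 2.39% in Tfam f/f-labelled ones. The names of the deposited tables mark the KspCre-labelled libraries as wild type. Directions below are therefore between labels, not between known genotypes. Total counts over genes were 30348281 to 48899266 in the KspCre-labelled libraries and 19024208 to 34821537 in Tfam f/f-labelled ones. The TMM factors, which correct these totals for composition, were 0.852 to 0.871 in KspCre-labelled and 1.09 to 1.25 in Tfam f/f-labelled libraries. They thus differed between the labels without overlap, and the CPM and fold changes below rest on them. A member had between 187 and 13340 raw counts in a library.

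Mitochondria form a network that is remodelled all the time. Mitofusins join outer membranes and OPA1 joins inner membranes, while the dynamin-related protein DRP1, drawn to the surface by adaptors, constricts and divides the organelle. Damaged mitochondria can be removed by mitophagy, either after the kinase PINK1 accumulates on their surface and recruits the ubiquitin ligase parkin, or through receptors such as BNIP3L that bind the autophagosome directly. Kidney tubule cells, above all those of the proximal tubule, are rich in mitochondria and depend on them for transport. Much of the control of these proteins lies in cleavage, phosphorylation and turnover, which RNA counts do not measure.

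Upstream sequence is shown for Pink1 and Opa1, the members with the largest differences, and for Bnip3, the nearest relative of Bnip3l and not itself a member. Each run holds the 250 bases before the annotated start in RefSeq sequence of build GRCm38.p6, on the strand of the gene. The runs lie at chr4:138326297-138326546 on the minus strand for Pink1, chr16:29579084-29579333 on the plus strand for Opa1 and chr7:138909507-138909756 on the minus strand for Bnip3. Capitals mark matches on either strand to the motifs named after the runs.
Pink1: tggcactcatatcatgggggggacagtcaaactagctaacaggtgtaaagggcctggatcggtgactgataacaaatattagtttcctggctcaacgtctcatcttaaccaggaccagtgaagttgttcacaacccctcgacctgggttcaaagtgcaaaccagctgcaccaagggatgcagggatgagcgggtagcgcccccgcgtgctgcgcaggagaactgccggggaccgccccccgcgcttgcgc
Opa1: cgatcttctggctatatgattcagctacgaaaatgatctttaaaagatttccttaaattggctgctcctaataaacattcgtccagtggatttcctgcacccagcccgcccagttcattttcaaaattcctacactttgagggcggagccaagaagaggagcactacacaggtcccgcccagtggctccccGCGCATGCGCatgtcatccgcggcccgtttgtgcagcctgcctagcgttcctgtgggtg
Bnip3: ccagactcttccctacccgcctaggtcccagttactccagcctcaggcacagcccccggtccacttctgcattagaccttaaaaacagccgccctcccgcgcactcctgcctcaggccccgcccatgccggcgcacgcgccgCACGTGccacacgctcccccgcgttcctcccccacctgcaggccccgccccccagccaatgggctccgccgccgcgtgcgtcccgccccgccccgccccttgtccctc

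Of the 10 members, 8 had an entry in the promoter table, and Park2 and Bnip3l had none. The letters searched on both strands were CACGTG for the E-box, ACGTG for the hypoxia response core, GTAAACA for FOXO factors and AAGGTCA for estrogen-related receptors, beside the longer motif of NRF1 and the lysosomal CLEAR element. The E-box contains the hypoxia core, and the CLEAR element contains both. Upstream of Opa1 there was 1 NRF1 match, which begins 59 bases before the start. NRF1 is a transcription factor of nuclear genes for mitochondrial proteins, and 0.782% of the 32851 promoters in the table held its motif. In the run of Bnip3 the E-box with its overlapping hypoxia cores begins 108 bases before the start. The E-box stood in 6.02% and the hypoxia core in 16.6% of all promoters. The run of Pink1 held none of these letters. Among the other members, 1 of the 3 starts listed for Mfn2 had a hypoxia core, beginning 39 bases before the start. A match is a description of the letters and not a binding site.

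Of the 10 genes, 3 were higher in the KspCre-labelled libraries, 0 were lower and 7 did not pass the test. Those that passed were Pink1, Opa1 and Bnip3l, with differences of 1.91-fold, 1.54-fold and 1.34-fold. Differences were tested with edgeR's quasi-likelihood test over 17308 genes, and genes were called at an adjusted p below 0.05 (Benjamini-Hochberg). Over all tested genes, 21.3% were called higher, 24.9% lower and 46.2% in either direction. An unadjusted p under 0.05 was reached by 5 of the 10 genes and by 54.7% of all tested genes. The median log2 fold change was 0.28 for the members and -0.03 for all tested genes. In 7 of the 10 genes every KspCre-labelled library exceeded every Tfam f/f-labelled library, which held for 29.8% of all tested genes (61.9% when either direction counts). These 7 were the 4 genes counted as fusion, among them the protease gene Oma1, and the 3 mitophagy genes. The groups overlapped for the 3 fission genes. This split rests on the TMM factors. As a share of total gene counts, of the 7 only Pink1 was apart in this direction. Mfn1, Park2 and the 3 fission genes were then lower in every KspCre-labelled library. In whole kidney, fewer cells of a type and less RNA per cell cannot be told apart.

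**Figure D1:**
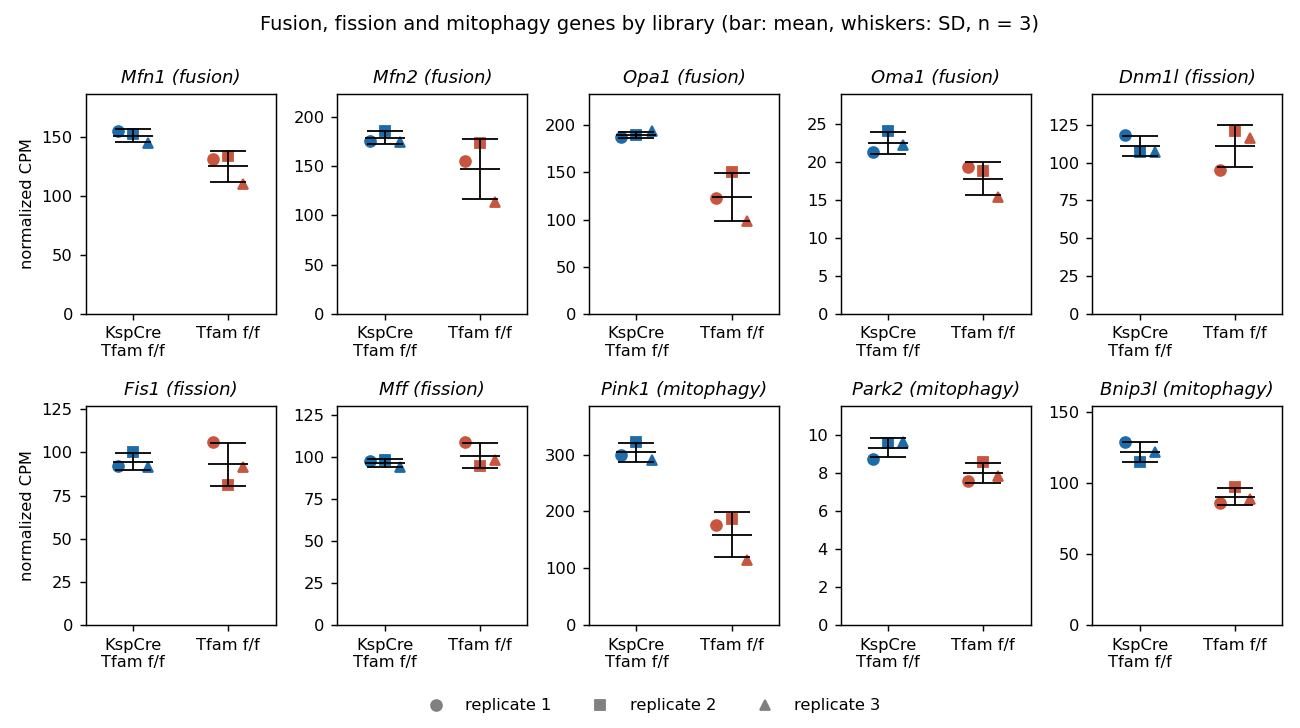
Normalized CPM of the 10 genes in every library, with KspCre-labelled libraries on the left and Tfam f/f-labelled ones on the right of each panel. Bars are means and whiskers SD of 3 libraries, and the axes start at 0. After TMM scaling, groups are apart for the fusion genes, with Oma1 counted among them, and for the mitophagy genes, and overlap for Dnm1l, Fis1 and Mff.

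Among the fusion genes, Opa1 was higher in the KspCre-labelled libraries, and the mitofusins and Oma1 did not pass. Opa1 (ENSMUSG00000038084.16, chr16:29579334-29654884 in mm10) encodes the GTPase that fuses inner membranes and shapes cristae. It had 187, 190 and 194 CPM in the KspCre-labelled libraries, against 123, 150 and 98.5 CPM in Tfam f/f-labelled ones. The first group lay within a narrow band, and the second was lower in all libraries and spread widely. The difference was 1.54-fold (95% interval 1.19 to 1.99, log2 fold change 0.62, SE 0.16, edgeR adjusted p = 0.0159). This call was lost without KspCre-labelled replicate 1, 2 or 3 (adjusted p = 0.0515, 0.0545 and 0.0575) or Tfam f/f-labelled replicate 1 (0.0572), at log2 fold changes of 0.62 to 0.64. Intervals here and below are those of the edgeR fit.

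The mitofusins differed less between the groups. Mfn1 (chr3:32529465-32579239), which tethers and fuses outer membranes, had 155, 152 and 145 CPM in the KspCre-labelled libraries and 131, 134 and 110 CPM in Tfam f/f-labelled ones. The groups did not overlap, and the ratio was 1.21-fold (95% interval 1.01 to 1.45, edgeR adjusted p = 0.0834). Without Tfam f/f-labelled replicate 2 this gene passed (edgeR adjusted p = 0.0405, log2 fold change 0.35, which was 0.27 with all libraries). Mfn2 (chr4:147873599-147904704), its paralogue, which also links mitochondria to the endoplasmic reticulum, had 176, 186 and 175 CPM in the KspCre-labelled libraries and 155, 174 and 114 CPM in Tfam f/f-labelled ones. The lowest value of the first group was just above the highest of the second. The ratio was again 1.21-fold, with a wider interval of 0.933 to 1.58 (edgeR adjusted p = 0.193). Its log2 fold change of 0.28 was 0.12 without Tfam f/f-labelled replicate 3 (edgeR adjusted p = 0.333) and 0.43 without Tfam f/f-labelled replicate 2 (0.0528).

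Oma1 (chr4:103313812-103371868) encodes the inner membrane protease that cleaves OPA1 under stress. It had 21.3, 24.1 and 22.2 CPM in the KspCre-labelled libraries and 19.4, 18.8 and 15.4 CPM in Tfam f/f-labelled ones. All libraries of the second group were lower, by little. The ratio of 1.26-fold (95% interval 1.04 to 1.53) just missed the threshold (edgeR adjusted p = 0.0541). It passed without Tfam f/f-labelled replicate 2 (edgeR adjusted p = 0.0458, log2 fold change 0.4, which was 0.33 with all libraries), with the size factors of DESeq2 and in 4 of 12 random thinnings of the libraries to the same total of gene counts.

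After TMM scaling, no difference was detected for the fission genes, and the intervals bound any change under that scaling only. As a share of total gene counts, all 3 genes were lower in every KspCre-labelled library. Dnm1l (chr16:16312230-16358959), which encodes DRP1, had 118, 107 and 107 CPM in the KspCre-labelled libraries and 95.4, 121 and 116 CPM in Tfam f/f-labelled ones. The groups overlapped, and the means were 111 ± 6.53 CPM in KspCre-labelled and 111 ± 13.7 CPM in Tfam f/f-labelled libraries (SD, n = 3 each). The ratio of 0.996 had an interval of 0.822 to 1.21 (edgeR adjusted p = 0.973). Fis1 (chr5:136953275-136966234), an outer membrane adaptor, had 92.1, 100.0 and 91.3 CPM in the KspCre-labelled libraries and 106, 81.4 and 91.4 CPM in Tfam f/f-labelled ones. Its ratio was 1.02 (interval 0.839 to 1.23, edgeR adjusted p = 0.885), and the second group held both the highest and the lowest library. Mff (chr1:82724890-82752394), a receptor for DRP1, had 97.8, 98.1 and 94.1 CPM in the KspCre-labelled libraries and 109, 94.5 and 98.2 CPM in Tfam f/f-labelled ones. Its ratio was 0.961 (interval 0.824 to 1.12, edgeR adjusted p = 0.641), so that a difference of 1.5-fold lay outside the intervals of all 3 genes. The direction of these small ratios was not stable, since each changed sign in some alternative.

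Among the mitophagy genes, Pink1 had the largest difference of the set. Pink1 (ENSMUSG00000028756.12, chr4:138313409-138326307) encodes the kinase that marks depolarised mitochondria. It had 300.0, 322 and 291 CPM in the KspCre-labelled libraries, against 176, 187 and 114 CPM in Tfam f/f-labelled ones. The groups were far apart, and Tfam f/f-labelled replicate 3 was the lowest. The difference was 1.91-fold (95% interval 1.4 to 2.62, log2 fold change 0.94, SE 0.2, edgeR adjusted p = 0.00764). It stayed past the threshold with each library left out, with adjusted p of 0.000931 to 0.0339. Against a minimum fold of 1.5 it did not pass, and neither did any other member.

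Bnip3l (ENSMUSG00000022051.15, chr14:66985239-67008877), which encodes the receptor NIX, was also higher. It had 129, 115 and 122 CPM in the KspCre-labelled libraries, against 86.0, 97.0 and 89.0 CPM in Tfam f/f-labelled ones. The difference was smaller than that of Pink1, and the spread within both groups was narrow. It came to 1.34-fold (95% interval 1.15 to 1.58, log2 fold change 0.43, SE 0.1, edgeR adjusted p = 0.0111), and the call was lost without KspCre-labelled replicate 1 (adjusted p = 0.0557, log2 fold change 0.39). Park2 (chr17:10840384-12063361), which encodes parkin, was scarce, with 187 to 396 raw counts in a library. It had 8.74, 9.57 and 9.61 CPM in the KspCre-labelled libraries and 7.56, 8.56 and 7.85 CPM in Tfam f/f-labelled ones. The groups were close without overlapping, and the ratio of 1.16-fold did not pass (95% interval 0.946 to 1.43, edgeR adjusted p = 0.195).

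**Figure D2:**
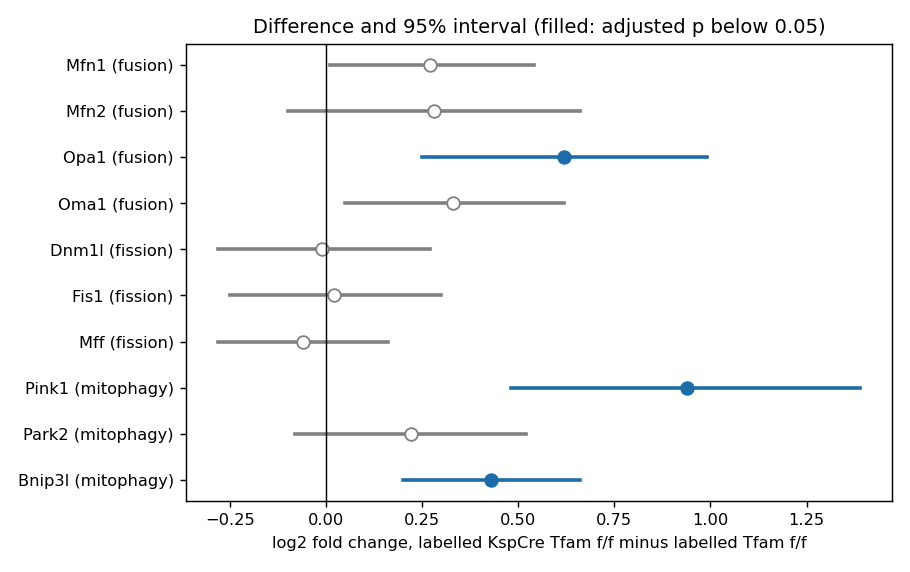
Log2 fold change of each gene, KspCre-labelled libraries minus Tfam f/f-labelled ones, with its 95% interval from the edgeR fit. Filled points passed an adjusted p below 0.05, namely Opa1, Pink1 and Bnip3l, while the 3 fission genes lie near 0.

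Levels of different genes were compared per kilobase of exon, counting all annotated exons once. In the KspCre-labelled libraries, Pink1 led with 114 ± 6.1 CPM per kilobase (SD, n = 3), followed by Fis1 with 55.2 ± 2.93, Mfn2 with 34.5 ± 1.26 and Bnip3l with 31.6 ± 1.81. Mfn1 (24.6 ± 0.857) and Opa1 (24.2 ± 0.395) overlapped, Dnm1l (21.2 ± 1.26) came next, and Oma1 (10.5 ± 0.687) overlapped with Mff (9.91 ± 0.228). Park2 was last with 0.911 ± 0.0483 CPM per kilobase. In the Tfam f/f-labelled libraries, Pink1 (59.5 ± 14.8) and Fis1 (54.3 ± 7.36) overlapped. There Mfn2, Bnip3l, Dnm1l, Mfn1 and Opa1 followed at 28.4 to 15.7, each range overlapping the next, then Mff (10.3 ± 0.776), Oma1 (8.32 ± 1.01) and Park2 (0.782 ± 0.0503). All exons of Mff and Park2 together are much longer than their principal transcripts, and per kilobase of principal transcript these genes stood at 51.0 and 2.91 CPM in the KspCre-labelled libraries, and at 53.1 and 2.5 CPM in Tfam f/f-labelled ones. On that scale Mff came next after Pink1 (128) and Fis1 (120) in the KspCre-labelled libraries, and in the Tfam f/f-labelled libraries Fis1 (118) stood above Pink1 (66.9). Park2 was last on both scales.

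Ratios of raw counts within a library do not depend on how libraries are scaled. The ratio of Dnm1l to Opa1 was 0.63, 0.562 and 0.552 in the KspCre-labelled libraries and 0.778, 0.81 and 1.18 in Tfam f/f-labelled ones. The groups did not overlap, and the mean log2 ratios of -0.79 in KspCre-labelled and -0.14 in Tfam f/f-labelled libraries differed by -0.64 (two-sided exact permutation p = 0.1, the smallest that 3 against 3 libraries can give, and 0.133 adjusted over 4 measures). The ratio of Bnip3l to Bnip3 was 0.745, 0.709 and 0.791 in the KspCre-labelled libraries and 0.803, 0.84 and 1.3 in Tfam f/f-labelled ones, a log2 difference of -0.36 (exact permutation p = 0.1). The groups were narrowly apart, and Tfam f/f-labelled replicate 3 was the highest. Without that library the difference was -0.14. The ratio of Mfn1 to Mfn2 was 0.883, 0.813 and 0.831 in the KspCre-labelled libraries and 0.842, 0.769 and 0.964 in Tfam f/f-labelled ones. These overlapped (exact permutation p = 0.8), with a log2 difference of -0.02. The share of mitochondrial mRNAs was the fourth measure, with means of 11.0% in KspCre-labelled and 3.77% in Tfam f/f-labelled libraries (exact permutation p = 0.1).

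**Figure D3:**
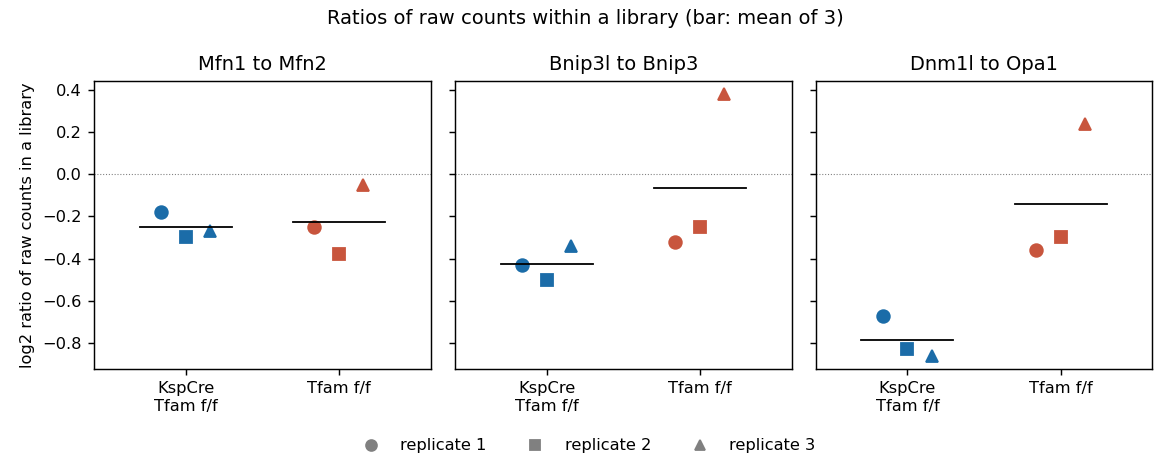
Log2 ratio of raw counts of 2 genes in each library, with KspCre-labelled libraries on the left of each panel. Bars are means of 3 libraries. The Dnm1l to Opa1 ratio is lower in all KspCre-labelled libraries, and the Mfn1 to Mfn2 ratio overlaps between the groups.

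The Tfam f/f-labelled libraries differed among themselves, and the members took part in this unequally. As a percentage of the mean of the KspCre-labelled libraries, Pink1 stood at 57.9%, 61.5% and 37.4% in Tfam f/f-labelled replicates 1, 2 and 3. Opa1 stood at 64.4%, 78.8% and 51.7%, and Mfn2 at 86.6%, 97.0% and 63.6%. In these 3 genes replicate 3 was the lowest and replicate 2 the highest. Over the whole set, 5 of the 10 genes were lowest in replicate 3, and 7 were highest in replicate 2. Bnip3l was less variable, at 70.6%, 79.6% and 73.0%, and Dnm1l was at 86.4%, 110% and 105%. The coefficient of variation in the Tfam f/f-labelled libraries was 24.9% for Pink1, 20.8% for Opa1 and Mfn2, and 6.29% for Bnip3l. In the KspCre-labelled libraries it was 1.64% to 6.54% over the 10 genes.

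Proximal tubule and injury markers moved with the same libraries. Not all classes did so. The podocyte sum was lowest in Tfam f/f-labelled replicate 1, and the principal cell sum was nearest to the KspCre-labelled range in replicate 3. The summed CPM of 15 proximal tubule markers was 30795 to 33002 in the KspCre-labelled libraries, and 9120, 15200 and 3638 in Tfam f/f-labelled replicates 1, 2 and 3, with 12 of 15 called higher and none at 0. The sum of 8 tubular injury markers was 826 to 890 CPM in the KspCre-labelled libraries and 6002, 3159 and 13230 CPM in Tfam f/f-labelled ones, with all 8 called lower. Tfam f/f-labelled replicate 3 was the lowest for the proximal tubule sum and the highest for the injury sum. Macrophage markers summed to 131 to 144 CPM in the KspCre-labelled libraries and 165 to 449 CPM in Tfam f/f-labelled ones, with 11 of 12 called lower. Red cell transcripts summed to 200 to 244 CPM in the KspCre-labelled libraries and 52.7 to 139 CPM in Tfam f/f-labelled ones, with 5 of 6 tested called higher. Markers of 8 other cell classes were measured as well. Those of the thick ascending limb, distal tubule, intercalated cells and podocytes summed higher in every KspCre-labelled library, those of principal cells and lymphocytes lower, and endothelial and mural sums overlapped between the groups. Single markers did not all follow the sums. For the thick ascending limb and for the distal tubule, 4 of 7 were called higher and 1 lower. For intercalated cells 6 of 7 were called higher and 1 lower, and for podocytes 3 of 6 higher. Lower calls were 5 of 7 for principal cells and 3 of 11 tested for lymphocytes. Over all tested genes, 21.3% were called higher and 24.9% lower. The part of these marker shifts in the differences of Pink1, Opa1 and Bnip3l was not tested.

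**Figure D4:**
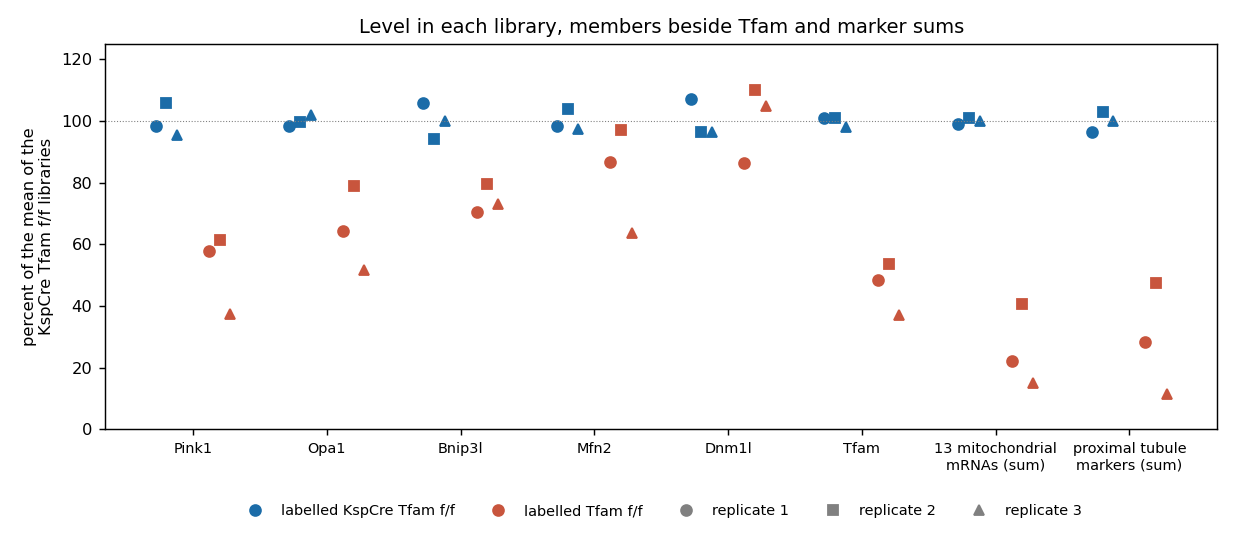
Level in each library as a percentage of the mean of the 3 KspCre-labelled libraries, for 5 of the genes beside Tfam, the summed mitochondrial mRNAs and the summed proximal tubule markers. Tfam f/f-labelled replicate 3 is lowest for Pink1, Opa1, Mfn2, Tfam and both sums, and Dnm1l stays near 100%.

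The other genes of the pathway were taken from 11 lists and counted once each (means below are ± SD over 3 libraries of a label), which gave 104 tested genes with the regulators described among the closing observations. Of these, 38 were higher in the KspCre-labelled libraries, 12 were lower and 54 did not pass, with a median log2 fold change of 0.25. Over all genes, 21.3% were higher and 24.9% lower. With upper quartile scaling the counts were 28 higher and 15 lower. Without KspCre-labelled replicate 1, 2 or 3 the higher genes numbered 17, 16 and 17.

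Other fusion and fission genes went both ways. Of 7 other fusion genes, Msto1, linked to fusion in human cells, was lower (16.1 ± 1.47 CPM in KspCre-labelled and 33.3 ± 6.47 CPM in Tfam f/f-labelled libraries, edgeR adjusted p = 0.00228), and 6 did not pass. Of 10 other tested fission genes, 5 were higher, 3 were lower and 2 did not pass. Mtfr1, which promotes fission, had 142 ± 1.76 CPM in the KspCre-labelled libraries and 64.0 ± 19.5 CPM in Tfam f/f-labelled ones (2.21-fold, edgeR adjusted p = 0.00434). Its relative Mtfr2, at 0.457 ± 0.131 CPM in KspCre-labelled and 1.18 ± 0.104 CPM in Tfam f/f-labelled libraries, was scarce and lower (edgeR adjusted p = 0.00969). Its log2 fold change of -1.38 was -1.13 without KspCre-labelled replicate 1 and -1.02 with the libraries thinned to the same total. It stayed called in both. The formin gene Inf2, whose product builds actin at division sites, was lower as well, with 11.2 ± 1.37 CPM in KspCre-labelled and 20.7 ± 1.79 CPM in Tfam f/f-labelled libraries (edgeR adjusted p = 0.00223).

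Of 8 inner membrane proteases and prohibitins that act on or beside OPA1, 3 were higher in the KspCre-labelled libraries and 5 did not pass. Spg7 had 118 ± 6.04 CPM in KspCre-labelled and 72.8 ± 14.5 CPM in Tfam f/f-labelled libraries (edgeR adjusted p = 0.00893). The others were Yme1l1 (128 ± 7.47 CPM in KspCre-labelled and 88.3 ± 20.5 CPM in Tfam f/f-labelled libraries, 0.0303) and Afg3l1 (104 ± 4.78 CPM in KspCre-labelled and 78.3 ± 14.1 CPM in Tfam f/f-labelled libraries, 0.0446). Yme1l1 encodes the protease that cleaves OPA1 in unstressed cells, and Spg7 and Afg3l1 encode subunits of the matrix-facing protease. The call of Yme1l1 was lost without any one library other than Tfam f/f-labelled replicate 2 (adjusted p from 0.0577 without Tfam f/f-labelled replicate 3 to 0.0989 without KspCre-labelled replicate 1). That of Afg3l1 was lost without any one KspCre-labelled library or without Tfam f/f-labelled replicate 1 (adjusted p from 0.0606 to 0.135), and with upper quartile scaling (0.0649). Among 11 genes of cristae junctions and outer membrane contacts, 2 were higher, 1 was lower and 8 did not pass. Apool and Apoo, which encode lipid-binding subunits of the cristae junction complex, had 45.1 ± 0.558 CPM in KspCre-labelled and 26.4 ± 5.06 CPM in Tfam f/f-labelled libraries for Apool (edgeR adjusted p = 0.00452) and 75.4 ± 0.846 CPM in KspCre-labelled and 46.1 ± 12.0 CPM in Tfam f/f-labelled libraries for Apoo (0.0164). The Apoo call was lost without any KspCre-labelled library (adjusted p from 0.0506 to 0.0535). Dnajc11 was lower, at 79.2 ± 4.93 CPM in KspCre-labelled and 119 ± 2.44 CPM in Tfam f/f-labelled libraries (edgeR adjusted p = 0.0026).

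Of 4 genes for mitochondrial transport along microtubules, 2 were higher in the KspCre-labelled libraries and 2 did not pass. Rhot1, which encodes the outer membrane anchor MIRO1, had 77.7 ± 2.11 CPM in KspCre-labelled and 53.0 ± 5.77 CPM in Tfam f/f-labelled libraries (edgeR adjusted p = 0.00459). The motor adaptor gene Trak2 had 283 ± 2.77 CPM in the KspCre-labelled libraries and 148 ± 45.6 CPM in Tfam f/f-labelled ones (1.91-fold, edgeR adjusted p = 0.0104).

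Among 7 other mitophagy receptors, Bnip3 and Nipsnap1 were higher in the KspCre-labelled libraries and 5 did not pass. Bnip3, whose product resembles NIX and likewise binds the autophagosome, had 173, 162 and 154 CPM in the KspCre-labelled libraries, against 107, 115 and 68.3 CPM in Tfam f/f-labelled ones. It was 1.68-fold higher (edgeR adjusted p = 0.016), and the call was lost without KspCre-labelled replicate 1 or 2 (adjusted p = 0.0579 and 0.0509). Nipsnap1 had 163 ± 2.97 CPM in KspCre-labelled and 99.3 ± 23.8 CPM in Tfam f/f-labelled libraries (edgeR adjusted p = 0.0142, and 0.0504 without KspCre-labelled replicate 2). The genes Fbxl4 and Pptc7, whose products limit BNIP3 and NIX, did not pass. Pptc7 had 66.4 ± 2.48 CPM in KspCre-labelled and 52.5 ± 11.6 CPM in Tfam f/f-labelled libraries (edgeR adjusted p = 0.109) and passed without Tfam f/f-labelled replicate 2 (0.0136).

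Of 10 partners of PINK1 and parkin, 3 were higher in the KspCre-labelled libraries, 1 was lower and 6 did not pass. Fbxo7, a ubiquitin ligase subunit that binds parkin, had 96.4 ± 3.66 CPM in KspCre-labelled and 49.9 ± 7.24 CPM in Tfam f/f-labelled libraries (1.93-fold, edgeR adjusted p = 0.00122). Usp8, which removes ubiquitin from parkin, had 234 ± 2.51 CPM in KspCre-labelled and 134 ± 32.5 CPM in Tfam f/f-labelled libraries (edgeR adjusted p = 0.00897). The deubiquitinase gene Usp35 was lower, at 2.03 ± 0.466 CPM in KspCre-labelled and 5.39 ± 1.42 CPM in Tfam f/f-labelled libraries (edgeR adjusted p = 0.00545).

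The 5 tested cargo adaptors, which tie ubiquitin-coated cargo to the autophagosome or serve as their kinase, all passed, 3 higher and 2 lower in the KspCre-labelled libraries. Optn, the gene of optineurin, which acts downstream of PINK1, had 23.3, 23.8 and 25.9 CPM in the KspCre-labelled libraries, against 63.8, 61.8 and 67.1 CPM in Tfam f/f-labelled ones. Both groups were tight and far apart, and the log2 fold change was -1.4 (SE 0.09, edgeR adjusted p = 7.9e-05). The other lower gene, named after its values were seen, was Sqstm1 (504 ± 35.7 CPM in KspCre-labelled and 720 ± 106 CPM in Tfam f/f-labelled libraries, edgeR adjusted p = 0.044). Its call was lost without any one library other than Tfam f/f-labelled replicate 3 (adjusted p from 0.06 to 0.17), and with the size factors of DESeq2 (0.0547). Tax1bp1 (390 ± 8.28 CPM in KspCre-labelled and 263 ± 29.1 CPM in Tfam f/f-labelled libraries, edgeR adjusted p = 0.0135) and Nbr1 (308 ± 9.79 CPM in KspCre-labelled and 205 ± 38.8 CPM in Tfam f/f-labelled libraries, 0.0209) were higher. The call of Tax1bp1 was lost without any one KspCre-labelled library (0.0525 to 0.0593), and that of Nbr1 without those or Tfam f/f-labelled replicate 1 (0.0634 to 0.0767). Tbk1, the kinase gene, was named after its values were seen and had 44.3 ± 0.874 CPM in KspCre-labelled and 35.8 ± 2.43 CPM in Tfam f/f-labelled libraries (edgeR adjusted p = 0.0226, 0.0673 to 0.0853 without any one KspCre-labelled library, and 0.07 with upper quartile scaling).

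Of 29 genes of the autophagosome core, 14 were higher in the KspCre-labelled libraries, Atg7 was lower and 14 did not pass. Atg7, which encodes the enzyme that activates ATG8 proteins, had 22.3 ± 1.18 CPM in KspCre-labelled and 37.0 ± 1.93 CPM in Tfam f/f-labelled libraries (edgeR adjusted p = 0.00115). Atg3, which acts in the next step of the same conjugation, had 63.7 ± 2.26 CPM in KspCre-labelled and 43.6 ± 0.596 CPM in Tfam f/f-labelled libraries (edgeR adjusted p = 0.00183). Wipi1, which binds the lipid of forming autophagosomes, had 56.7 ± 1.57 CPM in KspCre-labelled and 31.6 ± 4.63 CPM in Tfam f/f-labelled libraries (edgeR adjusted p = 0.00162).

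**Figure D5:**
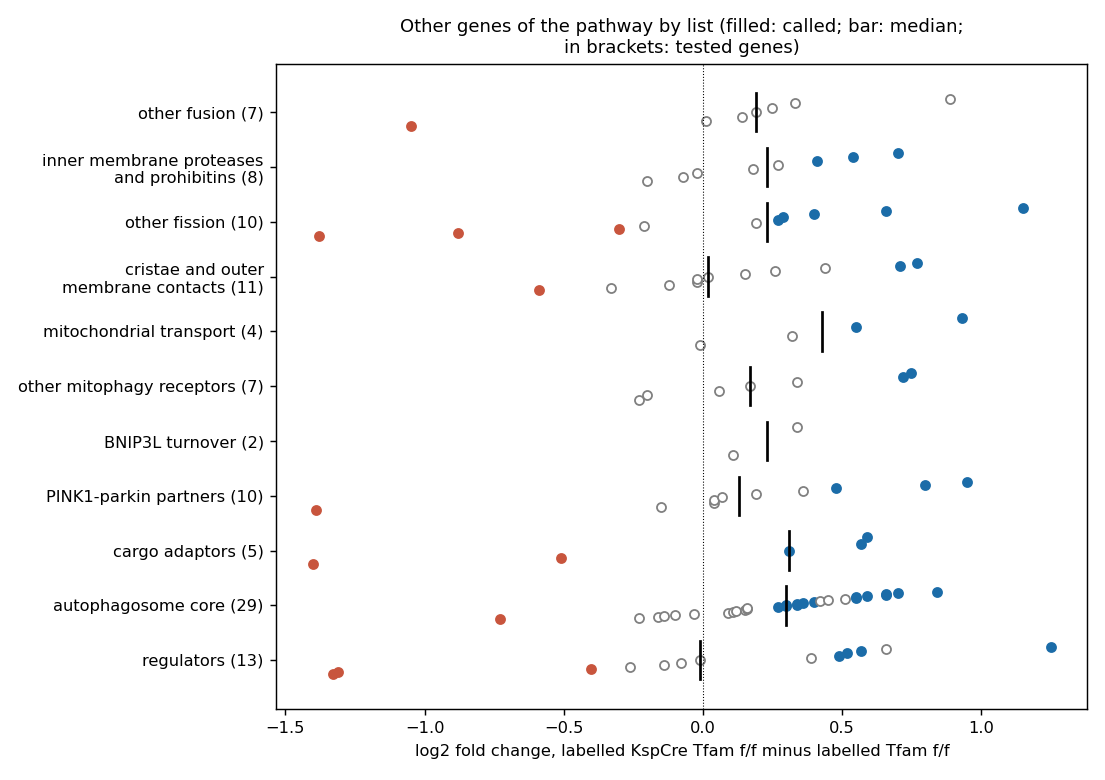
Log2 fold change, KspCre-labelled libraries minus Tfam f/f-labelled ones, of the tested genes of 11 pathway lists. Filled points passed an adjusted p below 0.05, and the bar is the median of a list. Cargo adaptors and other fission genes lie on both sides of 0, and called genes of the autophagosome core lie above 0 except Atg7.

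Likeness of profile was described by Pearson's r of log2 CPM over the 6 libraries, against 113 genes of these lists and the other members. These r are a description with no test, since all points come from the same 6 libraries. For genes that differ between the labels r takes in that difference, while for Dnm1l, Fis1 and Mff, whose groups overlap, it rests more on the scatter among libraries. Pink1 was most like Vcp (r = 0.999), the gene of a segregase that extracts ubiquitin-tagged proteins, and Opa1 was most like Trak2 (0.996). Bnip3l was most like Mief1 (0.984), which encodes a receptor for DRP1. Mfn1 was most like Bnip3 (0.997), Mfn2 like Mtfp1 (0.98), Oma1 like Afg3l1 (0.986) and Dnm1l like Fam73a (0.979). Values were lower for Park2 with Ulk2 (0.931), Mff with Atg101 (0.925) and Fis1 with Parl (0.893).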

How the data were processed

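Whole-kidney RNA was sequenced in 6 libraries. Each library has 1 deposited table of raw read counts by gene. STAR 2.4.1d, HTSeq 0.11.0, Trim Galore and FastQC are named, with build mm10, per the submitters' processing notes. For settings, annotation and strand, the entry is "not given in the sources used here". The 5 summary lines without a gene held 16.0% to 20.4% of all lines' counts and were left out. Antisense genes that overlap exons of Dnm1l and Mff had 3 and 61 counts over all libraries. Positions and exon lengths were taken from GENCODE M21 of the same build.

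The test was that of edgeR 4.0.16, run in R 4.3.3 (filterByExpr with minimum count 10 and minimum total 15, TMM factors, robust glmQLFit, glmQLFTest), without covariates. Ratios within libraries were tested by exact permutation with scipy 1.17.1. DESeq2 1.42.0, limma voom 3.58.1, other scalings and filters, a replicate block, thinning and leaving out each library were tried. Within each label the libraries differed beyond counting noise (chi-square per degree of freedom 7.18 to 12.0 for KspCre Tfam f/f and 64.0 to 167 for Tfam f/f), and each counts as 1 sample.

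Members and lists were chosen with earlier results of these data known. The naming rule takes all members, Tfam, Bnip3 and, per list, up to 3 called genes with the smallest p, or 1 where none was called. Gdap1 and Calcoco2 had too few counts to be tested. The fitting code was tested on simulated data. There it called 8.96% of genes changed 1.5-fold, 52.2% of those changed 2-fold and 84.8% of those changed 4-fold, with 7 false calls. Most changes of 1.5-fold were thus missed.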

Additional observations from a re-analysis of the deposited data

How the results depend on the processing

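The log2 fold changes of the 4 fusion and 3 mitophagy members were above 0 under all 16 alternatives, at 0.74 to 1.09 for Pink1, 0.48 to 0.8 for Opa1, 0.35 to 0.5 for Bnip3l, 0.2 to 0.41 for Oma1, 0.19 to 0.35 for Mfn1, 0.12 to 0.43 for Mfn2 and 0.14 to 0.29 for Park2. All 16 used factors that correct for composition, and the TMM factors differed between the labels without overlap. Scaling by plain totals of gene counts was not tested, but the raw counts show that these signs do not all hold under it. As a share of the total, Mfn1 and Park2 were lower in every KspCre-labelled library. Mfn2 and Oma1 overlapped between the labels, with lower means in the KspCre-labelled libraries. Opa1 and Bnip3l overlapped as well, and Pink1 was higher in every KspCre-labelled library. The call was lost in 5 of the 16 for Opa1, 2 for Bnip3l and 1 for Pink1. Against a minimum fold of 1.5, 0 members, 3 higher and 7 lower pathway genes and 2940 of all genes were called, since that test asks for more. Leaving out 1 library gave 1 to 5 members called higher, 16 to 50 higher pathway genes, 9 to 15 lower ones and 5098 to 9594 of all genes, against 3, 38, 12 and 8000 with all libraries. These fits have fewer libraries. No alternative called a member lower. The ratio of Mfn1 to Mfn2 ran from -0.098 to 0.064 in log2 with 1 library left out. Dnm1l changed sign with DESeq2 and with its size factors (0.016 each), without a filter (0.0058) and with voom (0.0015), and ran from -0.088 to 0.089 with 1 library left out. Fis1 changed sign with upper quartile factors (-0.053) and ran from -0.043 to 0.15 with 1 library left out, and Mff ran from -0.078 to 0.02. The cause was not tested. Thinning to the same total of gene counts (19024208), which leaves the share of mitochondrial mRNAs unequal between the labels, is random, and 12 draws, added after seeing the data, called Pink1, Opa1 and Bnip3l each time and Oma1 in 4 (adjusted p from 0.029 to 0.421), with Dnm1l at -0.079 to 0.025. With the replicate number as a block, 3 members, 28 higher and 10 lower pathway genes and 6813 of all genes were called, and the adjusted p was 0.0506 for Afg3l1, 0.113 for Sqstm1, 0.0734 for Tbk1, 0.0766 for Ppargc1b and 0.0217 for Epas1. The numbers share no stated source, and the deviations of same-numbered libraries from their group means correlated at -0.174, -0.0702 and -0.0708, so they do not pair the libraries. None of the libraries correlated best with its own number (0 of 6). A member that did not pass is not shown to be equal between the labels.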

Other observations

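Regulators that act on these genes in other settings went both ways. Of 13 tested, 4 were higher in the KspCre-labelled libraries, 3 were lower and 6 did not pass. The shares over all tested genes were 21.3% higher and 24.9% lower. Hif1a, a hypoxia-inducible factor known to induce Bnip3 and Bnip3l, had 101, 88.1 and 95.3 CPM in the KspCre-labelled libraries, against 211, 242 and 250 CPM in Tfam f/f-labelled ones (log2 fold change -1.31, edgeR adjusted p = 0.000338). Epas1, which encodes another hypoxia-inducible factor, had 141, 155 and 148 CPM in the KspCre-labelled libraries, against 84.1, 131 and 65.0 CPM in Tfam f/f-labelled ones. These groups did not overlap, in the other direction than Hif1a, but the gene did not pass (1.58-fold, edgeR adjusted p = 0.0518). It passed with the size factors of DESeq2 (0.0499), with DESeq2 (0.0217), with voom (0.0411) and without Tfam f/f-labelled replicate 2 (0.0018), where its log2 fold change was 1.01, against 0.66 with all libraries. Atf4, the transcription factor of the integrated stress response, was lower, at 88.3 ± 5.95 CPM in KspCre-labelled and 221 ± 22.2 CPM in Tfam f/f-labelled libraries (edgeR adjusted p = 0.000343). Tfe3, which drives lysosomal and autophagy genes, had 31.4 ± 1.55 CPM in KspCre-labelled and 41.4 ± 3.02 CPM in Tfam f/f-labelled libraries (edgeR adjusted p = 0.0111, and 0.059 and 0.0585 without KspCre-labelled replicate 1 or 2). Ppargc1a, the coactivator of mitochondrial biogenesis, stood at 130 ± 5.2 CPM in KspCre-labelled and 130 ± 19.5 CPM in Tfam f/f-labelled libraries (edgeR adjusted p = 0.962) and did not pass. The 4 genes higher in the KspCre-labelled libraries were Foxo3 (1.43-fold, edgeR adjusted p = 0.0129), Gabpa (1.49-fold, 0.0165), Ppara (2.38-fold, 0.0338) and Ppargc1b (1.4-fold, 0.0475). The call of Foxo3 was lost without KspCre-labelled replicate 1 or 2 (0.0582 and 0.0529). That of Gabpa was lost without KspCre-labelled replicate 1 or 3 or Tfam f/f-labelled replicate 1 (0.0594 to 0.0662). Ppara lost its call without any one KspCre-labelled library or Tfam f/f-labelled replicate 1 (0.0775 to 0.102) and without a filter on low counts (0.168). Ppargc1b lost it without any one library other than Tfam f/f-labelled replicate 2 (0.0826 to 0.16), with upper quartile scaling (0.0717), thinned (0.153) and with voom (0.0545). Ppargc1a, Epas1 and these 4 genes were named after their values were seen.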
